A study of Mus musculus with 6 samples.

Results

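A list of 39 genes of the type I interferon response was followed across 3 clonal mouse B cell lines. The members were chosen by name, as transcription factors, sensors and antiviral effectors of this response, with earlier results of these data known. All 39 were found among the 37315 genes of the abundance table and 32 of them among the 19402 genes of the allele table. RNA-seq had been performed on immortalised B cells of 3 lines, named Abl.2, Abl.3 and, as a further clone, Abl.4. All lines carry the F1 background 129S1/SvImJ x CAST/EiJ, so that maternal and paternal transcripts can be counted apart at heterozygous positions. By their labels, the sex is female for Abl.2 and Abl.4 and male for Abl.3. Every culture was a control in medium with 1% DMSO, harvested as live cells on day 2, and no library had been treated with an interferon. Each line is a single clone with 2 library preparation replicates. The p-values below therefore measure the spread between library preparations and not between independent clones or animals. Sex and any other property of a line cannot be told apart from the clone.

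Type I interferons bind the receptor formed by IFNAR1 and IFNAR2, which activates the kinases JAK1 and TYK2. These phosphorylate STAT proteins, among them STAT2, which joins IRF9 in a complex that binds interferon-stimulated response elements in the promoters of target genes. Many targets are themselves parts of the pathway, such as Irf7, Stat2 and the sensors of viral RNA, and B cells carry the receptor. A common core of a response element is GAAA, then NN, then GAAA, called the ISRE-type motif here.

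To show the sequence in front of members that differed most between lines, promoter windows were read from RefSeq (build GRCm38.p6), 300 bases long and running from ahead of each gene start to just past it. Of the 39 members, 29 were matched, with 36 windows in all. Among these, 15 windows of 14 members held the ISRE-type motif on either strand, against 3.44% of all 32851 windows of the same length. The motif TTCNNNGAA, a form of the STAT dimer site, was found in 9 windows of 9 members, against 8.30% of all windows. The 6 members printed here held the ISRE-type motif and had the largest abundance differences among those that did. Capitals mark every match on either strand, and overlapping matches run together. Positions are counted from the gene start of RefSeq, which for some members, such as Bst2, Ifit1 and Ifitm3, differs from the deposited coordinates given below.
Bst2: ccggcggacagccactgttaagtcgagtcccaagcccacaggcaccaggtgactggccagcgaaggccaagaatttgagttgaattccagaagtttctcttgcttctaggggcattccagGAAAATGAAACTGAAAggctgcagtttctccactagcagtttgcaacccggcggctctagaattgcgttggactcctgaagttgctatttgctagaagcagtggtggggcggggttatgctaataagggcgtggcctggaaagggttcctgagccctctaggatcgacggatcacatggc
Ifit3: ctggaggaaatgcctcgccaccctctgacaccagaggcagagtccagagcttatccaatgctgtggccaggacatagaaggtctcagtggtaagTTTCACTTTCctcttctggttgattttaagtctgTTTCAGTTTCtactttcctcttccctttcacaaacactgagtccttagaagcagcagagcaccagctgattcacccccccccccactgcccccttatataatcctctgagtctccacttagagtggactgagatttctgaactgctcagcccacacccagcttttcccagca
Ifitm3: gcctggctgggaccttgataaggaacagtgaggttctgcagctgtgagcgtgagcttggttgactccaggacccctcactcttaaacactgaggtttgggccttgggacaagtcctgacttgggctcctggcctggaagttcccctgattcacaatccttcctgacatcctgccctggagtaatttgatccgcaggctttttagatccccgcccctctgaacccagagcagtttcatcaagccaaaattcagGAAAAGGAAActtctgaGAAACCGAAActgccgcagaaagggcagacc
Ifit1: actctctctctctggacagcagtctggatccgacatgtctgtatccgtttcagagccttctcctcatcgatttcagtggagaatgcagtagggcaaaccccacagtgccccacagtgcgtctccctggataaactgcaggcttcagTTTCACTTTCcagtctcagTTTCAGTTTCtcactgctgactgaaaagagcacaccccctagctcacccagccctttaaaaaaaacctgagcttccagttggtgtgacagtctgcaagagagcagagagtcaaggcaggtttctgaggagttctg
Isg15: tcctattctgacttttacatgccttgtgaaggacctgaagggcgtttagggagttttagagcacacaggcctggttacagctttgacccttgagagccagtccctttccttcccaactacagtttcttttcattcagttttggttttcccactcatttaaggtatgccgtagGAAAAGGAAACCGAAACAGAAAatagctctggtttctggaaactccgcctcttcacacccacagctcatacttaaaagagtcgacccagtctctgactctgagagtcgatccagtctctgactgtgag
Oas1a: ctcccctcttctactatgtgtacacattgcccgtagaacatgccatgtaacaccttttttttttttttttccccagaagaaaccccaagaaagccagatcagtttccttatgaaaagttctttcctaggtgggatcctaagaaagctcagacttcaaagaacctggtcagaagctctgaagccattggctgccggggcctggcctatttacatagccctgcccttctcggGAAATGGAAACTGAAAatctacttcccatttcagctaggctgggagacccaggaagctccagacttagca
The window of Bst2 (chr8:71537423-71537722, minus strand) had matches at 130 and 124 bases before the start. That of Ifit3 (chr19:34583279-34583578, plus strand) had matches at 156 and 122 bases before the start, on the opposite strand. In Ifitm3 (chr7:141010695-141010994, minus strand) both matches lay after the start. Ifit1 (chr19:34640639-34640938, plus strand) had matches at 104 and 85 bases before the start, on the opposite strand. Isg15 (chr4:156200769-156201068, minus strand) held 3 overlapping matches, from 78, 72 and 66 bases before the start. Oas1a (chr5:120907476-120907775, minus strand) held 2 overlapping matches, from 20 and 14 bases before the start. A match describes the letters only.

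Abundance was measured in TPM, a gene's length-scaled share of all transcripts that keeps no depth, so the depth behind it is unknown. Allelic counts summed to between 18362319 and 26881211 per library. The labelled cell type was checked first, and 13 of 13 B lineage markers were above 1 TPM in at least 1 library, with summed levels of 16678 to 17420 TPM in Abl.2, 15085 to 16527 TPM in Abl.3 and 15815 to 15959 TPM in Abl.4. Of 8 T cell markers, 7 were below 1 TPM in every library, and Cd3g, Cd4, Trac and Thy1 were listed at 0 throughout. Plasmacytoid dendritic cells, a main source of type I interferon, had 3 of 7 markers below 1 TPM in every library. Klk1 was at 0 in all of them and Siglech and Ccr9 did not pass 0.1 TPM. The other 4 were expressed, Tcf4 at 119 to 180.1 TPM and Spib at 7.95 to 40.9 TPM, besides Bst2 and Irf8, which belong to the interferon lists themselves. The 7 summed to 407 to 423 TPM in Abl.2, 554 to 622 TPM in Abl.3 and 626 to 718 TPM in Abl.4. These sums hold Bst2 and Irf8, so their order is not independent of the interferon lists. Tcf4 was at 173 and 172 TPM in Abl.2, 143 and 119 TPM in Abl.3 and 180 and 164 TPM in Abl.4. Spib was at 8.86 and 7.95 TPM in Abl.2, 40.9 and 34.8 TPM in Abl.3 and 20.1 and 20.1 TPM in Abl.4. Of 6 erythroid markers, 5 were below 1 TPM in every library, with Hba-a2, Hbb-bs and Hbb-bt at 0 throughout. The sums of the myeloid and natural killer lists were highest in Abl.2, each mainly through 1 gene. The summed level of 9 myeloid markers was 161 to 196 TPM in Abl.2, 81.1 to 103 TPM in Abl.3 and 80.5 to 92.9 TPM in Abl.4. Nearly all of it was Lyz2, at 158 and 193 TPM in Abl.2 and 70.8 to 96.5 TPM elsewhere, while Adgre1, Cd14 and Elane were at 0 in every library. Other myeloid markers had other orders: Itgam was at 0.51 and 0.35 TPM in Abl.2 and 6.89 and 6.74 TPM in Abl.4, and Cd68 at 2.44 and 3.23 TPM in Abl.2 and 5.91 and 6.02 TPM in Abl.3. For 6 natural killer markers the sums reached 14.5 to 16.7 TPM in Abl.2, 0.85 to 1.18 TPM in Abl.3 and 5.93 to 6.83 TPM in Abl.4. They were nearly all Klrb1c, and Ncr1 was at 0 in every library. The part of these markers in the results below was not tested. In bulk RNA, fewer cells expressing a gene and less of its RNA per cell cannot be told apart.

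The members were most abundant in Abl.2. The mean of Abl.2 was the highest of the lines for 34 of the 39 members, that of Abl.3 for 3 (Zbp1, Oas3 and Bst2) and that of Abl.4 for 2 (Eif2ak2 and Samhd1). Both Abl.2 libraries lay above the other 4 libraries for 32 of 39 members. The background was taken over the 11003 genes whose mean reached 1 TPM, which include 32 of the members. Of these 32, Abl.2 had the highest mean for 28 (35.9% of all genes), and both its libraries lay above the rest for 26 (background 21.8%). Both counts include Ifit1 and Ifit3b, which reached a mean of 1 TPM in Abl.2 only. In turn both Abl.3 libraries lay above the rest for 2 (background 13.6%) and both Abl.4 libraries for 1 (background 23.7%). At the low end, both Abl.3 libraries lay below the rest for 12 of the 32 (background 30.1%), both Abl.4 libraries for 11 (12.9%) and both Abl.2 libraries for 1 (17.7%). Of the 39 members, 24 and 25 reached 10 TPM in the libraries of Abl.2, 17 and 17 in Abl.3, and 17 and 16 in Abl.4. The median member was at 4.02 and 4.08 log2(TPM + 1) in Abl.2, at 2.94 and 2.93 in Abl.3 and at 2.87 and 2.49 in Abl.4.

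**Figure D1:**
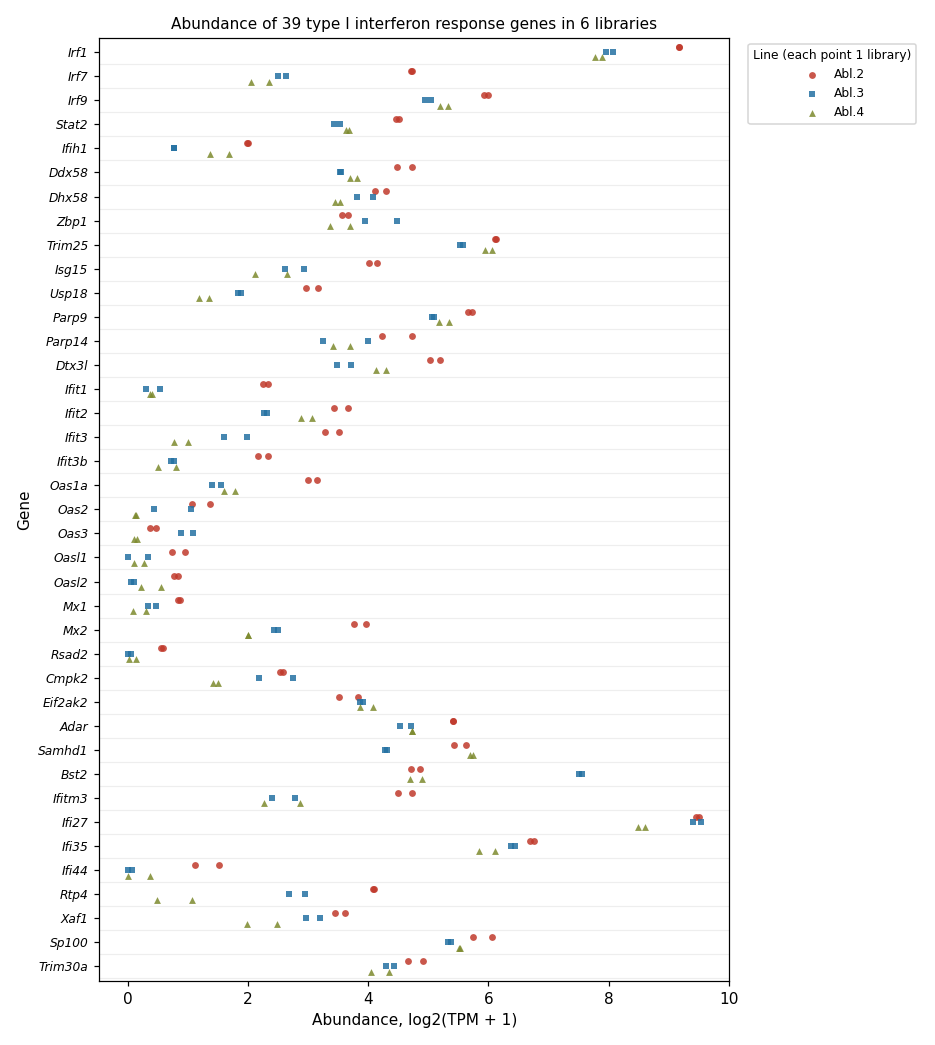
Abundance of the 39 members, as log2(TPM + 1) on the x axis and genes ordered by role on the y axis, with 1 point per library (circles Abl.2, squares Abl.3, triangles Abl.4). The circles lie furthest to the right for 32 of the 39 members, and the squares of Bst2 stand apart at about 7.5.

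Differences between lines were tested by limma on log2(TPM + 1) over genes whose mean reached 1 TPM, with Benjamini-Hochberg adjustment over all 11003 of them and a threshold of 0.05. The filter kept 32 members. The 7 others, Oas2, Oas3, Oasl1, Oasl2, Mx1, Rsad2 and Ifi44, were too low. Ifit1 and Ifit3b reached a mean of 1 TPM in Abl.2 only, so that passing the filter and differing were not independent for them. Between Abl.2 and Abl.3, 24 of the 39 listed members were called higher in Abl.2, 1 was called lower, 7 did not pass the test and 7 were not tested. The background was 39.8% of genes called, with 25.9% higher in Abl.2 and 14.0% lower. Against Abl.4, 25 members were called higher in Abl.2 and 0 lower, where the background was 33.5% called, 15.0% higher and 18.4% lower. These comparisons share the Abl.2 libraries and are not independent of each other. Between Abl.3 and Abl.4, 11 members were called higher in Abl.3 and 5 lower, on a background of 38.1% called, 11.3% higher and 26.8% lower. Fitted without the filter, all 39 members had a median difference of 0.85 on the log2 scale between Abl.2 and Abl.3, beside 0.02 for all genes. For the pair of Abl.2 and Abl.4 the median was 0.82, beside -0.02 for all genes. For Abl.3 and Abl.4 it was 0.07, beside -0.07. In that fit, members called higher and lower in the first line numbered 27 and 2, 27 and 0, and 7 and 5. Calls among all 17232 genes numbered 4008, 3576 and 4063, of which 63.8%, 41.6% and 29.4% were higher in the first line.

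Changes of at least 1 on the log2 scale were counted in the same way. Between Abl.2 and Abl.3, 17 members were called higher in Abl.2 by that size (background 6.38%) and Bst2 was called lower (background 4.16%). Against Abl.4, Abl.2 had 13 called higher (background 3.47%) and 0 lower (background 6.59%). The 17 and the 13 include Ifit1 and Ifit3b, which passed the filter only through Abl.2. Between Abl.3 and Abl.4 the counts were 3 higher in Abl.3 (background 2.54%) and 1 lower (background 6.93%). Quantile normalisation moved the median of all genes from 0.10 to -0.00 in the comparison of Abl.2 with Abl.3. It moved that of Abl.3 with Abl.4 from -0.15 to 0.03. The share of all calls higher in the first line went from 65.0% to 51.4% and from 29.8% to 52.0% in these comparisons, and from 44.9% to 52.8% in that of Abl.2 with Abl.4. With edgeR on summed allelic counts, which tested 24 members, these shares were 52.7%, 46.2% and 49.3%. Members called higher and lower in the first line numbered 17 and 2, 20 and 0, and 9 and 3 in the comparisons of Abl.2 with Abl.3, Abl.2 with Abl.4 and Abl.3 with Abl.4, beside 3597, 3191 and 3182 calls among all 8517 genes tested that way. Under quantile normalisation, 22 members were called higher and 2 lower in Abl.2 than in Abl.3, 27 and 0 in Abl.2 than in Abl.4, and 12 and 2 in Abl.3 than in Abl.4, beside 4029, 3822 and 3663 calls among all 11003 genes. The count between Abl.3 and Abl.4 also rested on single libraries. Its 16 calls became 7 without Abl.3 replicate 1, 8 without Abl.3 replicate 2, 10 without Abl.4 replicate 1 and 9 without Abl.4 replicate 2. The calls over all genes fell too, from 4194 to 2343, 2370, 3691 and 2991 of 11003 under the same settings.

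**Figure D2:**
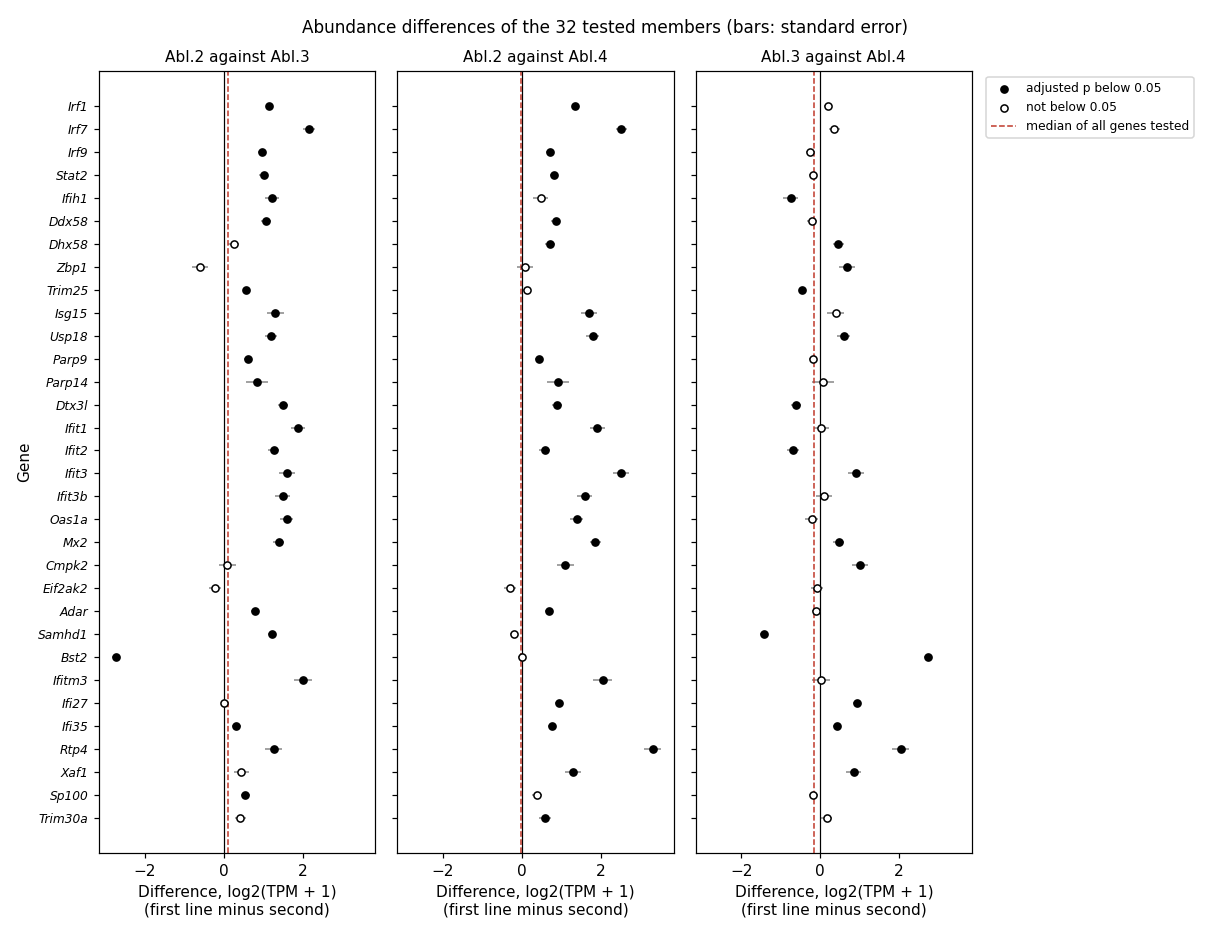
Abundance difference of the 32 tested members in each pair of lines, first line minus second on the log2(TPM + 1) scale, with bars for the standard error, filled points for an adjusted p below 0.05 (limma) and a dashed line for the median of all genes tested. Filled points lie mostly right of 0 in both comparisons with Abl.2, where Bst2 at -2.73 is the filled point on the left, and on both sides of 0 between Abl.3 and Abl.4.

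Among the transcription factors, all 4 listed were called higher in Abl.2 than in Abl.3 (25.9% of all genes) and than in Abl.4 (15.0%). Between Abl.3 and Abl.4, limma called 0 of 4, with 2 at an unadjusted p under 0.05. Other settings added calls there, for Irf1 (0.19) and Irf9 (-0.26) with the replicate block (limma, adjusted p = 0.0439 for both) and for Irf7 under quantile normalisation (0.70) and with edgeR on summed allelic counts (0.80). Irf7, the factor that amplifies interferon production (chromosome 7, 141262706 to 141266481), was at 25.4 and 25.5 TPM in Abl.2, 5.22 and 4.63 TPM in Abl.3 and 3.15 and 4.11 TPM in Abl.4. The Abl.2 libraries stood well apart from the other 4. The difference was 2.16 ± 0.14 (SE) against Abl.3 (limma, adjusted p = 0.000109) and 2.52 ± 0.14 against Abl.4 (limma, adjusted p = 6.09e-05). Irf1, a factor also induced by interferon gamma (chromosome 11, 53770014 to 53778374), was the most abundant of the 4. It was at 576 and 575 TPM in Abl.2, 269 and 247 TPM in Abl.3 and 236 and 217 TPM in Abl.4. Its groups did not overlap, with differences of 1.16 ± 0.079 and 1.34 ± 0.079 from Abl.2 to Abl.3 and Abl.4 (limma, adjusted p = 0.000121 and 6.94e-05). Stat2, the STAT specific to interferon types I and III (chromosome 10, 128270559 to 128292849), was at 21.1 and 21.7 TPM in Abl.2, 9.75 and 10.5 TPM in Abl.3 and 11.9 and 11.4 TPM in Abl.4. It differed by 1.01 ± 0.10 and 0.82 ± 0.10 from Abl.2 to Abl.3 and Abl.4 (limma, adjusted p = 0.00065 and 0.00161). The median difference of all chromosome 10 genes was 0.59 and 0.44 in the same comparisons. Irf9, the DNA-binding partner of the STATs, had differences of 0.96 and 0.70. Irf1, Irf7 and Irf9 overlap another annotated gene, and whether strand was used in counting is not given in the sources used here.

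Of the 5 sensors of viral nucleic acid, 3 were called higher in Abl.2 than in Abl.3 (25.9% of all genes) and 2 higher than in Abl.4 (15.0%). Ifih1, which encodes the double-stranded RNA sensor MDA5 (chromosome 2, 62595798 to 62646255), was at 3.00 and 2.96 TPM in Abl.2, 0.71 and 0.70 TPM in Abl.3 and 1.57 and 2.21 TPM in Abl.4. Abl.3 was thus the lowest line. The difference from Abl.2 to Abl.3 was 1.22 ± 0.18 (limma, adjusted p = 0.00285), and that from Abl.2 to Abl.4 did not pass, at 0.47 ± 0.18 (limma, adjusted p = 0.0924). It passed under quantile normalisation (0.70), with edgeR on summed allelic counts (1.05) and without Abl.4 replicate 2 (0.63). Ddx58, the RNA sensor RIG-I (chromosome 4, 40203773 to 40239828), was at 21.4 and 25.5 TPM in Abl.2, 10.5 and 10.7 TPM in Abl.3 and 13.1 and 11.9 TPM in Abl.4. It was higher in Abl.2 by 1.07 ± 0.12 and 0.85 ± 0.12 than in Abl.3 and Abl.4 (limma, adjusted p = 0.00102 and 0.00283). Trim25, the ubiquitin ligase that acts with RIG-I, was called lower in Abl.3 than in either other line, by values of 0.57 and 0.45 in size. Dhx58, the related helicase LGP2, was called lower in Abl.4, by 0.71 against Abl.2 and 0.45 against Abl.3. The first call was lost without Abl.2 replicate 2 (0.62) or Abl.4 replicate 2 (0.67), and the second without the filter on low values and whichever of the 6 libraries was left out (0.32 to 0.59). Zbp1, a sensor of Z-form nucleic acid, did not follow the other sensors. It was at 11.7 and 10.9 TPM in Abl.2, 21.3 and 14.4 TPM in Abl.3 and 12 and 9.30 TPM in Abl.4, and the call was between Abl.3 and Abl.4 (0.68 ± 0.20, limma, adjusted p = 0.0384). That call was lost without the filter (limma, adjusted p = 0.0920) and without any 1 library other than Abl.3 replicate 2, with differences of 0.42 to 0.85. Zbp1 was also called lower in Abl.2 than in Abl.3 under 5 other settings, namely the replicate block and a minimum mean of 5 TPM (-0.60 in both), quantile normalisation (-0.76), edgeR on summed allelic counts (-0.50) and leaving out Abl.3 replicate 2 (-0.86). With edgeR on those counts it was called higher in Abl.2 than in Abl.4 as well (0.73).

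All 5 members of the group around ISG15 and ADP-ribosylation were called higher in Abl.2 in both comparisons (25.9% and 15.0% of all genes). Isg15, a ubiquitin-like protein joined to other proteins (chromosome 4, 156199424 to 156200818), was at 15.2 and 16.8 TPM in Abl.2, 5.14 and 6.60 TPM in Abl.3 and 5.28 and 3.34 TPM in Abl.4. It was higher in Abl.2 by 1.31 ± 0.21 and 1.70 ± 0.21 (limma, adjusted p = 0.00375 and 0.00148), while Abl.3 and Abl.4 overlapped. With edgeR on summed allelic counts, Isg15 was called higher in Abl.3 than in Abl.4 (0.74, adjusted p = 0.0365). Usp18, which removes ISG15 and dampens receptor signalling (chromosome 6, 121245906 to 121270917), was at 7.99 and 6.78 TPM in Abl.2, 2.57 and 2.71 TPM in Abl.3 and 1.28 and 1.56 TPM in Abl.4. The 3 lines did not overlap. Differences from Abl.2 were 1.20 ± 0.16 and 1.79 ± 0.16 (limma, adjusted p = 0.00178 and 0.000359). Dtx3l, a ubiquitin ligase (chromosome 16, 35926511 to 35939151), was at 31.5 and 35.8 TPM in Abl.2, 12.1 and 10.2 TPM in Abl.3 and 16.6 and 18.6 TPM in Abl.4. It was higher in Abl.2 by 1.51 ± 0.13 and 0.90 ± 0.13 (limma, adjusted p = 0.0003 and 0.00272). Parp9, the partner of DTX3L whose gene overlaps it, had smaller differences of 0.61 and 0.43, and the second call was lost without Abl.2 replicate 1 (0.46) or Abl.2 replicate 2 (0.40). Parp14, another ADP-ribosyltransferase, had 0.85 and 0.92 with the widest error of the group (SE 0.28), and its adjusted p-values of 0.0496 and 0.0441 (limma) lay just inside the threshold. Both calls of Parp14 were lost without the filter (limma, adjusted p = 0.125 and 0.110) and with the replicate block (limma, adjusted p = 0.0626 and 0.0548). The call against Abl.3 was also lost with a pseudocount of 0.1 (0.91), under quantile normalisation (0.66) and without any 1 library other than Abl.3 replicate 1 (0.48 to 1.10). The call against Abl.4 was lost without any 1 library of Abl.2 or Abl.4 (0.68 to 1.17).

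The 4 genes of the IFIT family encode proteins that bind foreign RNA and lie together on chromosome 19. Ifit2 and Ifit3 were called higher in Abl.2 in both comparisons (25.9% and 15.0% of all genes). Ifit1 and Ifit3b passed the filter only through Abl.2, so their differences are given from the fit without it. Ifit3 (34583531 to 34588731) was at 8.76 and 10.4 TPM in Abl.2, 2.94 and 2.03 TPM in Abl.3 and 0.70 and 1.01 TPM in Abl.4. Its lines were all separate, with differences of 1.61 ± 0.20 and 2.51 ± 0.20 from Abl.2 (limma, adjusted p = 0.00135 and 0.000218). Ifit1 (34640871 to 34650009) was at 3.77 and 4.07 TPM in Abl.2, 0.45 and 0.23 TPM in Abl.3 and 0.30 and 0.32 TPM in Abl.4. Here Abl.3 and Abl.4 overlapped, and Abl.2 was higher by 1.88 ± 0.12 and 1.91 ± 0.12 (limma without the filter, adjusted p = 0.00119 and 0.00112). Ifit3b (34607970 to 34613401) showed the same order of size, at 3.48 and 4.03 TPM in Abl.2 and 0.42 to 0.74 TPM in the other 4 libraries. Its differences were 1.5 ± 0.15 and 1.59 ± 0.15 (limma without the filter, adjusted p = 0.00379 and 0.00321). Ifit3 and Ifit3b are near-identical copies that can share reads, so the split between them is uncertain. Ifit2 (34550694 to 34576419) was at 9.80 and 11.7 TPM in Abl.2, 3.79 and 3.96 TPM in Abl.3 and 6.35 and 7.36 TPM in Abl.4. Abl.4 lay between the others, with Abl.2 higher by 1.26 ± 0.14 and 0.58 ± 0.14 (limma, adjusted p = 0.000976 and 0.0233). The second call was lost without the filter on low values (limma, adjusted p = 0.0562) and without Abl.2 replicate 1 (0.70, adjusted p = 0.0561), Abl.2 replicate 2 (0.46, adjusted p = 0.137) or Abl.4 replicate 1 (0.49, adjusted p = 0.0830).

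The OAS genes encode sensors of double-stranded RNA that make a messenger activating RNase L, or relatives of them, and lie on chromosome 5. Oas1a (120896256 to 120907521) was the member of this family that passed the filter, at 6.97 and 7.91 TPM in Abl.2, 1.65 and 1.93 TPM in Abl.3 and 2.46 and 2.02 TPM in Abl.4. It was higher in Abl.2 by 1.60 ± 0.16 and 1.38 ± 0.16 (limma, adjusted p = 0.000602 and 0.00116), and close paralogs make its count uncertain. The other 4 stayed below 2 TPM in every library. Oas2 was at 1.11 and 1.59 TPM in Abl.2, 0.36 and 1.07 TPM in Abl.3 and 0.09 and 0.10 TPM in Abl.4. Oasl1 was at 0.94 and 0.66 TPM in Abl.2 and at 0 to 0.27 TPM elsewhere. Oasl2 was at 0.71 and 0.78 TPM in Abl.2 and at 0.04 to 0.46 TPM elsewhere. Oas3 had another order, at 1.13 and 0.84 TPM in Abl.3, 0.39 and 0.29 TPM in Abl.2 and 0.11 and 0.08 TPM in Abl.4. Without a filter, the difference of Abl.2 from Abl.3 was -0.56 ± 0.097 (limma, adjusted p = 0.0167). That fit also called Oas3 higher in Abl.3 than in Abl.4 (0.85). Oasl1 was called higher in Abl.2 than in Abl.3 and Abl.4 (0.67 and 0.65). Higher calls in Abl.2 were also made for Oasl2 against Abl.3 (0.72) and Oas2 against Abl.4 (1.09). The other comparisons of these 4 genes were not called.

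Of the 16 other effectors, 13 were tested. In Abl.2, 7 were called higher and 1 lower than in Abl.3 (25.9% and 14.0% of all genes), and 9 higher and 0 lower than in Abl.4 (15.0% and 18.4%). Ifitm3, which blocks the entry of viruses at membranes (chromosome 7, 141009586 to 141010770), was at 25.4 and 21.7 TPM in Abl.2, 4.31 and 5.90 TPM in Abl.3 and 6.30 and 3.84 TPM in Abl.4. Abl.2 was apart from the other 4 libraries, which overlapped, by 2.02 ± 0.23 and 2.04 ± 0.23 (limma, adjusted p = 0.00104 and 0.00107). Rtp4, a chaperone of membrane receptors (chromosome 16, 23520291 to 23614222), was at 16.1 and 15.9 TPM in Abl.2, 6.69 and 5.46 TPM in Abl.3 and 0.40 and 1.09 TPM in Abl.4. The steps between lines were 1.27 ± 0.22 from Abl.2 to Abl.3 and 2.04 ± 0.22 from Abl.3 to Abl.4 (limma, adjusted p = 0.00488 and 0.000857). The 3.31 ± 0.22 from Abl.2 to Abl.4 was the largest difference of any tested member (limma, adjusted p = 0.000103). The annotated gene overlaps Masp1. Mx2, a dynamin-like GTPase that GENCODE M21 lists as a polymorphic pseudogene (chromosome 16, 97535308 to 97560900), was at 12.6 and 14.6 TPM in Abl.2, 4.41 and 4.67 TPM in Abl.3 and 3.01 and 3.02 TPM in Abl.4. It was higher in Abl.2 by 1.39 ± 0.13 and 1.86 ± 0.13 (limma, adjusted p = 0.000495 and 0.000145).

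A few effectors had orders of their own. Bst2, the tetherin that holds budding viruses at the cell surface (chromosome 8, 71534255 to 71537456), was at 186 and 181 TPM in Abl.3, 28.3 and 25.3 TPM in Abl.2 and 28.8 and 24.8 TPM in Abl.4. It was the member called lower in Abl.2 than in Abl.3, at -2.73 ± 0.10 (limma, adjusted p = 1.2e-05), and Abl.2 and Abl.4 overlapped at a difference of 0.00 ± 0.10 (limma, adjusted p = 0.987). Samhd1, which degrades deoxynucleotides (chromosome 2, 157097533 to 157135265), was at 42.2 and 48.2 TPM in Abl.2, 18.4 and 18.9 TPM in Abl.3 and 52.7 and 50.8 TPM in Abl.4. Abl.3 was the low line, by 1.23 ± 0.096 against Abl.2 and, with Abl.3 minus Abl.4 at -1.42 ± 0.096, against Abl.4 (limma, adjusted p = 0.00022 and 0.000142). Cmpk2, a mitochondrial nucleotide kinase (chromosome 12, 26469204 to 26479837), was at 4.76 and 5.0 TPM in Abl.2, 5.71 and 3.53 TPM in Abl.3 and 1.82 and 1.66 TPM in Abl.4. Abl.4 was the low line, by 1.10 ± 0.21 and 1.01 ± 0.21 (limma, adjusted p = 0.00875 and 0.0114). The first call was lost without Abl.2 replicate 1, Abl.2 replicate 2 or Abl.4 replicate 2 and the second without Abl.4 replicate 2, with limma adjusted p-values between 0.0545 and 0.0614. Xaf1, a factor that promotes apoptosis (chromosome 11, 72301629 to 72313733), was at 11.2 and 9.98 TPM in Abl.2, 6.83 and 8.17 TPM in Abl.3 and 2.96 and 4.62 TPM in Abl.4. It was called higher in Abl.2 and in Abl.3 than in Abl.4, by 1.29 ± 0.20 and 0.84 ± 0.20 (limma, adjusted p = 0.0036 and 0.0172).

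Ifi27, a mitochondrial protein and the most abundant member, was at 723 and 697 TPM in Abl.2, 673 and 740.2 TPM in Abl.3 and 389 and 357 TPM in Abl.4. Abl.4 was again the low line, by 0.93 and 0.92. Adar, the RNA editing enzyme, was higher in Abl.2 by 0.80 and 0.69. Ifi35 was higher in Abl.2 by 0.32 and 0.75, Sp100, a nuclear body protein, by 0.55 than in Abl.3, and Trim30a by 0.58 than in Abl.4. The call of Ifi35 against Abl.3 was lost without the filter, under quantile normalisation (0.24), with edgeR on summed allelic counts (0.18) and without any 1 library of Abl.2 or Abl.3 (0.29 to 0.36). That of Sp100 was lost without Abl.2 replicate 2 (0.39), Abl.3 replicate 1 (0.52) or Abl.3 replicate 2 (0.58). That of Trim30a was lost without the filter and without Abl.2 replicate 1 (0.71), Abl.2 replicate 2 (0.46) or Abl.4 replicate 1 (0.43). Calls were added as well. Sp100 was called higher in Abl.2 than in Abl.4 with edgeR on summed allelic counts (0.52), a minimum mean of 5 TPM (0.38), quantile normalisation (0.41), the replicate block (0.38) and without Abl.2 replicate 1 (0.54). Trim30a was called higher in Abl.2 than in Abl.3 with edgeR on summed allelic counts (0.53) and the replicate block (0.42). Eif2ak2, the RNA-activated kinase PKR, ranged from 10.4 to 16.0 TPM over the 6 libraries and was called in 0 of 3 comparisons (limma, unadjusted p of 0.0752 to 0.573). Near or below 1 TPM, the remaining effectors were Mx1, Rsad2 and Ifi44. Mx1 was at 0.78 and 0.83 TPM in Abl.2 and 0.06 to 0.39 TPM elsewhere. Rsad2, the antiviral enzyme viperin, was at 0.46 and 0.51 TPM in Abl.2 and 0 to 0.10 TPM elsewhere. Ifi44 was at 1.86 and 1.17 TPM in Abl.2 and 0 to 0.29 TPM elsewhere. All 3 of these had both Abl.2 libraries above the other 4.

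Between Abl.3 and Abl.4, both the calls and the sizes of single members moved with the setting. Rtp4, Bst2, Samhd1 and Ifi27 were described above. Lower values in Abl.3 were called for Ifih1 (-0.75), Dtx3l (-0.61) and Ifit2 (-0.69), and higher ones for Usp18 (0.59), Ifit3 (0.90), Mx2 (0.46) and Xaf1 (0.84). Each of these 7 calls was lost when particular libraries were left out. The calls of Ifih1, Usp18, Ifit2 and Xaf1 were lost without either Abl.3 replicate, those of Usp18 and Xaf1 also without Abl.4 replicate 1, and that of Ifit2 also without Abl.4 replicate 2. The call of Dtx3l was lost without Abl.3 replicate 2 or Abl.4 replicate 2, and that of Ifit3 without Abl.3 replicate 1 or Abl.4 replicate 1. For Mx2 the call was lost whichever of the 6 libraries was left out. Other settings ended some of them too. Under quantile normalisation the differences of Ifih1, Dtx3l and Ifit2 shrank to -0.47, -0.33 and -0.37 and were not called (limma, adjusted p = 0.0810, 0.0777 and 0.0706). Calls were also lost for Ifih1 and Usp18 with edgeR on summed allelic counts (adjusted p = 0.0635 and 0.0699), and for Usp18, Mx2 and Xaf1 without the filter (limma, adjusted p = 0.0525, 0.0698 and 0.0509). With 1 library left out, the difference of Xaf1 ranged from 0.59 to 1.10. A further call, that of Ifi35 (0.43), was lost without Abl.3 replicate 1 (0.47), Abl.3 replicate 2 (0.39) or Abl.4 replicate 2 (0.30). None of these 8 turned its direction.

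Genes upstream in the pathway were read from a list of 37 that are not members, of which 27 passed the filter. Against Abl.3, 13 were called higher and 1 lower in Abl.2, beside 25.9% and 14.0% of all genes. Against Abl.4 the counts of Abl.2 were 10 and 6 (15.0% and 18.4% of all genes), while those of Abl.3 were 3 and 13 (11.3% and 26.8%). The 6 lower calls of Abl.2 and the 3 higher ones of Abl.3 were near these shares. The listed ligands Ifnb1, Ifna1, Ifna2, Ifna4, Ifna5, Ifnk, Ifne and Ifng were each at 0.24 TPM or less in every library. The receptor gene Ifnar1 was at 65.4 and 67.6 TPM in Abl.2, 47.0 and 44.0 TPM in Abl.3 and 67.1 and 67.4 TPM in Abl.4, and Ifnar2 at 62.0 to 89.1 TPM over all libraries. Both receptor genes were thus expressed in each line. Ifnar1 was called lower in Abl.3 than in Abl.2 and Abl.4, by 0.54 and 0.55 in size, and Ifnar2 was called lower in Abl.2 than in Abl.4, at -0.41 (limma, adjusted p = 0.0146), and lower in Abl.3 than in Abl.4, at -0.35. Cgas, the sensor of cytosolic DNA, was at 6.51 and 6.77 TPM in Abl.2, 0.38 and 0.41 TPM in Abl.3 and 2.40 and 2.52 TPM in Abl.4. It had the largest difference of this list, 2.45 ± 0.15 from Abl.2 to Abl.3 (limma, adjusted p = 7.31e-05), and 1.14 ± 0.15 to Abl.4 (limma, adjusted p = 0.00195). Trex1, the exonuclease that removes cytosolic DNA, fell in the order of the lines, at 111 and 102 TPM in Abl.2, 62.4 and 53.0 TPM in Abl.3 and 33.6 and 27.8 TPM in Abl.4. Socs1, the inhibitor of JAK kinases, was at 179 and 154 TPM in Abl.2, 132 and 130.3 TPM in Abl.3 and 46.1 and 32.8 TPM in Abl.4. Jak1 was low in Abl.3, at 125 TPM in both libraries against 234 to 281 TPM elsewhere, and Irf8 was high in Abl.4, at 489 and 417 TPM against 202 to 251 TPM. Usp15, a deubiquitinase on chromosome 10, was higher in Abl.2 by 1.09 and 0.90, beside a median of 0.59 and 0.44 for all chromosome 10 genes.

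A list of 32 other interferon-induced genes, of which 31 were tested, gave 15 higher and 5 lower calls in Abl.2 against Abl.3 (25.9% and 14.0% of all genes). The counts were 11 and 2 in Abl.2 against Abl.4 (15.0% and 18.4%), and 5 and 9 in Abl.3 against Abl.4 (11.3% and 26.8%). The lower calls against Abl.3 and both counts of the last comparison were near these shares. Ifitm1, a relative of Ifitm3 on the same chromosome (140967221 to 140969825), was at 223 and 199 TPM in Abl.2, 0.75 and 0.62 TPM in Abl.3 and 2.64 and 2.02 TPM in Abl.4. Abl.2 was higher by 6.97 ± 0.14 and 5.99 ± 0.14 (limma, adjusted p = 1.58e-06 and 2.95e-06). In contrast Ifi30, a lysosomal thiol reductase, was at 6.97 and 8.38 TPM in Abl.2, 58.7 and 56.4 TPM in Abl.3 and 110.3 and 111 TPM in Abl.4. Its differences from Abl.2 were -2.76 ± 0.10 and -3.69 ± 0.10 (limma, adjusted p = 1.16e-05 and 5.57e-06). Irgm1 and Gbp2, GTPases of cell-autonomous immunity, and Helz2 were called higher in Abl.2 in both comparisons, with differences from 1.04 to 1.92. Lgals3bp was low in Abl.4 (12 and 10.9 TPM against 75.1 to 94.0 TPM), Parp12 was high in Abl.3 (3.81 and 3.85 TPM against 0.47 to 1.29 TPM), and Phf11b was low in Abl.2 (1.64 and 1.63 TPM against 4.39 to 5.88 TPM). Not every interferon-induced gene thus had its highest level in Abl.2.

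**Figure D3:**
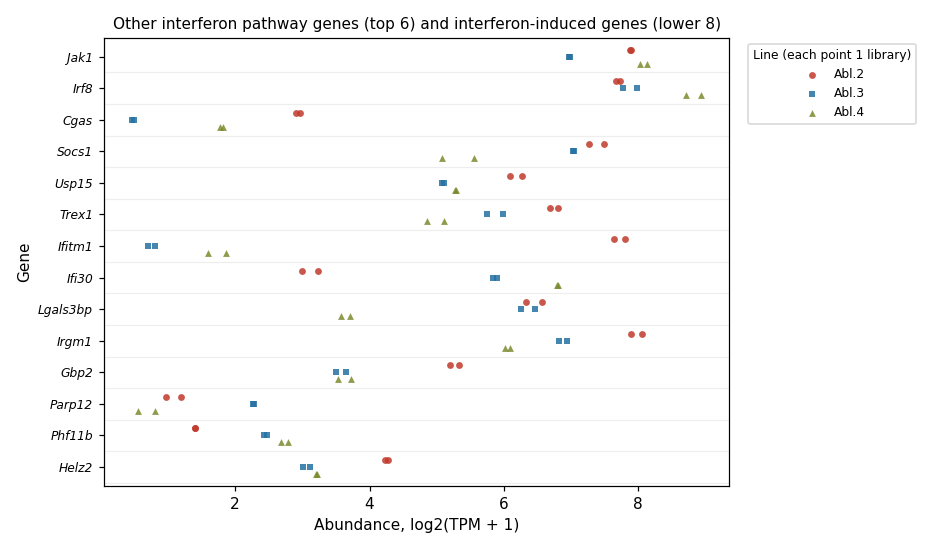
Abundance of 6 other pathway genes and 8 other interferon-induced genes that are not members, as log2(TPM + 1), with 1 point per library. The circles of Abl.2 lie far to the right for Ifitm1 and far to the left for Ifi30, while Irf8 was highest in Abl.4.

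Maternal and paternal counts of the members were compared next, the question of the series being unequal expression of alleles. The maternal share is the maternal count over the sum of both. Irf1, Ifit1, Ifit2, Ifit3, Ifit3b, Mx2 and Ifitm3 had no row in the allele table. Of the other 32, 24 had at least 20 allelic counts in each library and were tested by edgeR's quasi-likelihood test. Over the members with at least 20 counts in a line's libraries, the median share in Abl.2 was 0.524 (30 members), that in Abl.3 0.458 (25) and that in Abl.4 0.494 (25). A share unequal to 0.5 was called for 12 of 24 members in Abl.2 (background 49.1%), 12 in Abl.3 (background 45.1%) and 8 in Abl.4 (background 39.9%), each close to its background. In Abl.2 the split was 8 maternal to 4 paternal, and it became 4 to 9 when each allele's total was used as its library size. It was 5 to 7 in Abl.3 and 4 to 4 in Abl.4. In the authors' deposited table, the confidence limits of the maternal fraction left out 0.5 for 13 of 28 members with an estimate in Abl.2 (38.2% of all genes), 7 of 23 in Abl.3 (27.2%) and 5 of 22 in Abl.4 (22.9%). Shares of single libraries are given with 95% Wilson intervals, which take in counting error alone, because PCR copies cannot be told from separate molecules here.

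**Figure D4:**
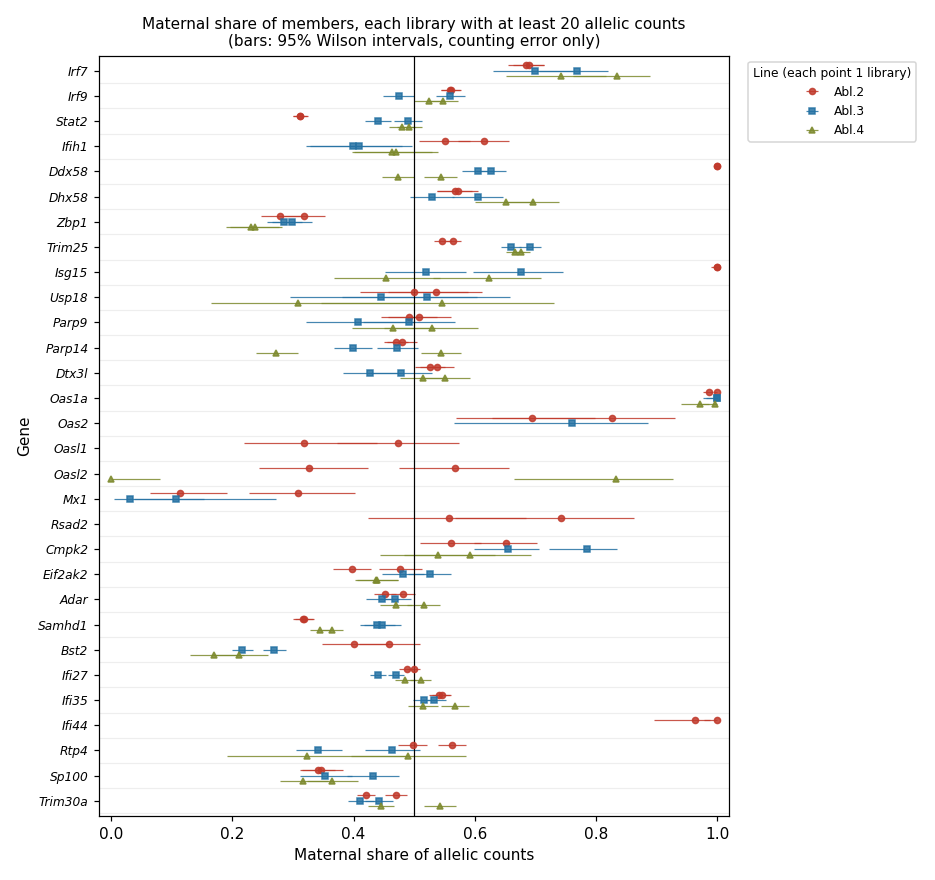
Maternal share of allelic counts for members with at least 20 counts in a library, with 1 point per library, bars for 95% Wilson intervals and a line at 0.5. Most members lie between 0.3 and 0.7 in every line, while Ddx58 and Isg15 are at or near 1 in Abl.2 only and Oas1a is near 1 in all 3 lines.

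Ddx58 and Isg15, both on chromosome 4, gave almost only maternal counts in Abl.2. For Ddx58, the Abl.2 libraries had 2912 maternal to 3 paternal and 3912 to 3 counts, shares of 0.999 in both (lower bounds 0.997 and 0.998). The Abl.3 libraries had shares of 0.606 and 0.627 and the Abl.4 libraries of 0.474 and 0.544. Isg15 had 351 and 528 maternal counts in Abl.2 and 0 paternal in either library, which allows a paternal share of up to 0.00855 and 0.00568. Its shares in Abl.3 were 0.675 and 0.519 and those in Abl.4 were 0.454 and 0.624, with wide intervals at 109 to 208 counts. Both differences from Abl.2 were called for both genes (edgeR, adjusted p between 2e-10 and 8.42e-06). Over all 554 genes of chromosome 4 with a share, the median was 0.998 for Abl.2, 0.508 for Abl.3 and 0.502 for Abl.4. The median abundance difference of chromosome 4 genes was 0.15 against Abl.3 and 0.00 against Abl.4, beside 1.07 and 0.85 for Ddx58. Oas1a was maternal in every line, at 1 and 0.987 in Abl.2, 1 and 1 in Abl.3 (197 and 160 maternal to 0 paternal counts) and 0.995 and 0.972 in Abl.4. Its chromosome had a median share of 0.491, 0.450 and 0.500 in the lines. Ifi44 had 77 maternal to 3 paternal and 177 to 0 counts in Abl.2 and at most 8 counts per library elsewhere. Mx1 went the other way, with shares of 0.113 and 0.308 in Abl.2 and 0.107 and 0.0303 in Abl.3, on 28 to 104 counts. Its Wilson intervals in Abl.2, 0.0645 to 0.192 and 0.227 to 0.402, did not overlap. With a minimum of 10 counts, Mx1 was called paternal in Abl.2 (-1.96) and in Abl.3 (-3.76) (edgeR, adjusted p = 0.0268 and 0.00802).

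Differences in allelic ratio between lines were called for 7 of 24 members in Abl.2 against Abl.3 (background 28.4%), 5 in Abl.2 against Abl.4 (22.3%) and 2 in Abl.3 against Abl.4 (16.5%). The first 2 counts were near their background and the last was below it. Bst2 had a share of its own in Abl.2. The Abl.2 libraries had maternal shares of 0.401 and 0.459, those of Abl.3 0.217 and 0.269 and those of Abl.4 0.211 and 0.170, so that Abl.2 was the closest to balance. The log2 ratio of maternal to paternal counts was 1.25 ± 0.22 higher in Abl.2 than in Abl.3 (edgeR, adjusted p = 0.00114) and 1.67 ± 0.26 higher than in Abl.4 (edgeR, adjusted p = 0.000543). Between Abl.3, with the high level of Bst2, and Abl.4 the ratio was not called, at 0.43 ± 0.24 (edgeR, adjusted p = 0.300). Stat2 was paternal in Abl.2, at 0.312 and 0.311, against 0.440 and 0.490 in Abl.3 and 0.492 and 0.480 in Abl.4. The ratio fell by 0.94 and 1.06 relative to Abl.3 and Abl.4 (edgeR, adjusted p = 7.3e-05 and 3.15e-05). The 431 genes of chromosome 10 with a share had a median of 0.337 in Abl.2 and of 0.504 and 0.503 in the other lines. Trim25 was closer to balance in Abl.2 (0.546 and 0.564) than in Abl.3 (0.660 and 0.691) or Abl.4 (0.667 and 0.676). Samhd1 was paternal in every line, at 0.317 and 0.318 in Abl.2, 0.439 and 0.448 in Abl.3 and 0.345 and 0.364 in Abl.4. In Abl.3 the imbalance call was lost without Abl.3 replicate 1 (edgeR, adjusted p = 0.0901), and the limits in the authors' deposited table, 0.35 to 0.54, took in 0.5. Irf7 was maternal in every line, at 0.685 to 0.835, although the authors' deposited limits in Abl.4, 0.48 to 1, took in 0.5, and its ratio was not called different in any pair with all 6 libraries. Without Abl.4 replicate 1 it was called between Abl.2 and Abl.4 (-1.19). The 2 calls between Abl.3 and Abl.4, for Ddx58 and Samhd1, became 1 without Abl.3 replicate 1, 0 without Abl.3 replicate 2, 1 without Abl.4 replicate 1 and 4 without Abl.4 replicate 2.

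For each allele, CPM values, an allele's counts scaled so that the allelic counts of every library have the same total, were used to show whether the higher level of Abl.2 came with both alleles. The maternal allele was higher in both Abl.2 libraries than in both of Abl.3 for 18 of 24 members (background 37.8%) and than in both of Abl.4 for 21 (34.1%). For the paternal allele the counts were 15 (35.4%) and 18 (31.7%). Irf7 was higher on both alleles, at 29.2 and 31.9 maternal and 13.4 and 14.4 paternal CPM in Abl.2. In Abl.3 it had 8.15 and 6.97 maternal and 2.47 and 3.00 paternal, and in Abl.4 3.90 and 5.55 maternal and 1.35 and 1.10 paternal. The ratio of means from Abl.2 to Abl.3 was 4.04 for the maternal and 5.10 for the paternal allele of Irf7. Rtp4 had 34.8 and 37.3 maternal and 35.2 and 29.0 paternal CPM in Abl.2, against 0.55 and 2.5 maternal and 1.15 and 2.60 paternal in Abl.4. Stat2 was higher mainly on the paternal allele, at 152 and 154 CPM in Abl.2 and 50.7 to 55.4 in the other lines, while its maternal allele was at 69.1 and 69.4 against 43.5 to 53.1. Its chromosome 10 was also more paternal in Abl.2, with a median maternal share of 0.337 beside 0.504 in Abl.3 and 0.503 in Abl.4. Ddx58 had 128 and 146 maternal CPM in Abl.2 and 32.7 to 47.1 in the others, and 0.132 and 0.112 paternal against 26.6 to 36.3. The maternal allele of Isg15 was likewise at 15.5 and 19.6 CPM in Abl.2 and at 2.70 to 5.88 in the others. For Ddx58 and Isg15 the counts of Abl.2 were almost only maternal, as they were for chromosome 4 as a whole (median share 0.998). The higher level could therefore be seen on the maternal allele only. Both genes count as not higher in the paternal counts above. Bst2 was higher in Abl.3 on both alleles, at 24 and 29.2 maternal and 86.6 and 79.3 paternal CPM, against 2.30 to 6.25 and 7.37 to 12.7 in the other lines.

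**Figure D5:**
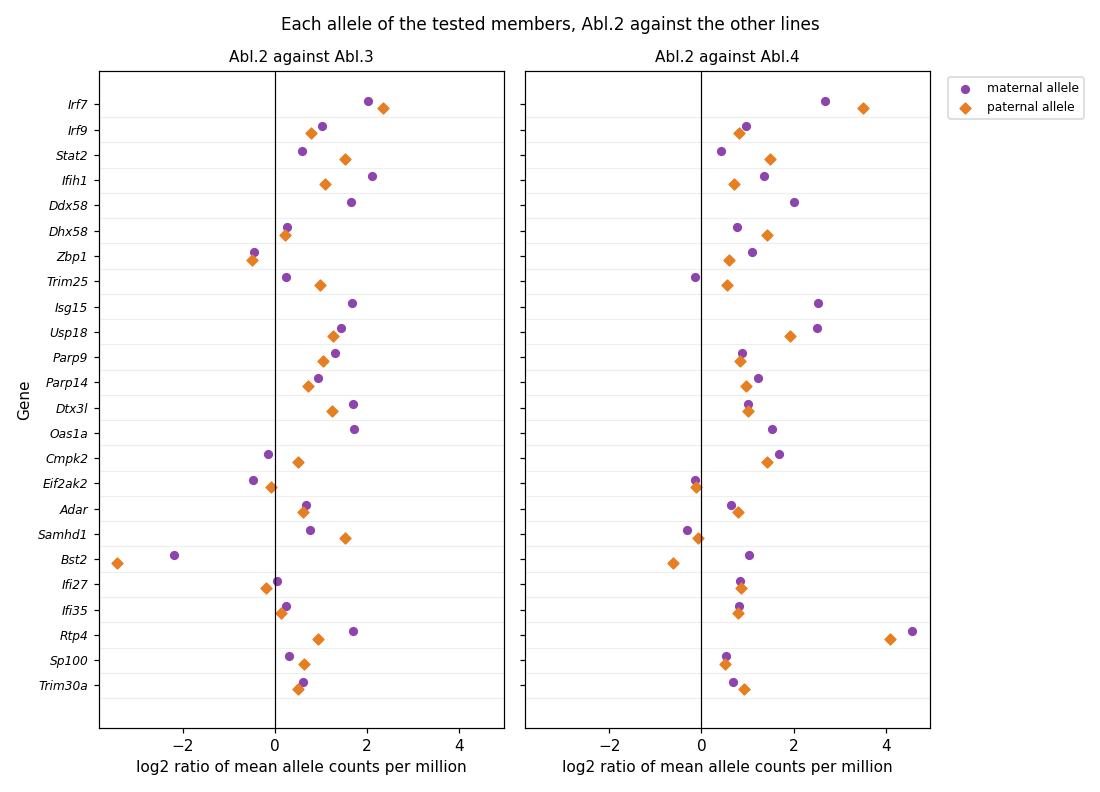
Log2 ratio of mean allele CPM, Abl.2 over Abl.3 (left) and over Abl.4 (right), for the maternal (circles) and paternal (diamonds) allele of the 24 tested members. Most points of both alleles lie right of 0; the paternal alleles of Ddx58, Isg15 and Oas1a are not drawn because a library compared had 3 counts or fewer.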

How the data were processed

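RNA-seq libraries of 3 clonal lines, 2 per line, were assigned to lines from their titles. Per the labels' protocols, DNase-treated RNA that had been isolated with magnetic beads went into SMART-seq v4 libraries, a kit without molecular identifiers. Per the file headers, the authors deposited a table of abundance in TPM, a table of maternal and paternal counts per gene, and a table of the maternal fraction per line with confidence limits. The submitters' processing notes name STAR 2.5.4a, SAMtools, GATK and DESeq2 and the builds GRCm38, mm10 and GRCh37, with no role given. The deposited coordinates were compared with GENCODE release M21 (GRCm38), and the starts matched for all 39 members. Of these, 16 overlap another annotated gene there.

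Abundance was tested in R 4.3.3 with limma 3.58.1 (functions lmFit and eBayes, trend on), using log2(TPM + 1), a scale that understates the change of low genes, over the 11003 genes whose mean reached 1 TPM. Allelic counts were tested with edgeR 4.0.16 (quasi-likelihood test). Its model held 1 intercept for each library and 1 allele effect for each line, and it ran for 8702 autosomal and X genes with at least 20 counts in each library. The Benjamini-Hochberg adjustment covered every gene tested, with a threshold of 0.05. All 6 libraries share an estimate of the spread. Scripts were tested on simulated data. Members with an adjusted p below 0.05 and a difference of at least 1 in a pair of lines were given in full, together with members whose maternal share differed by at least 0.2 or was at most 0.1 or at least 0.9 in a line, and the rest were summarised. In the other lists, genes of that size were named, at most 8 among the interferon-induced ones, where 9 met the rule and Trim14, with the smallest difference, was left out. The others in the text (such as Ifnar1, Zbp1 and Ifi27) were named after their values were seen. The members and lists were chosen with earlier results of these data known. Alternatives were a pseudocount of 0.1, a minimum mean of 5 TPM, no filter, quantile normalisation, edgeR on summed allelic counts, DESeq2 1.42.0, minimum counts of 10 and 50, allele totals as library sizes, a replicate block, and leaving out each library.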

Additional observations from a re-analysis of the deposited data

Results flagged for a closer look

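The allelic ratio of 7 members differed between lines by the edgeR quasi-likelihood test of the difference itself, with Benjamini-Hochberg adjustment over 8702 genes. Members called numbered 7 of 24 for Abl.2 minus Abl.3 (28.4% of all genes), 5 for Abl.2 minus Abl.4 (22.3%) and 2 for Abl.3 minus Abl.4 (16.5%), near or below the background. Values are differences of the log2 maternal to paternal ratio, first line minus second. Ddx58 had values of 9.40 (Abl.2 minus Abl.3), 10.03 (Abl.2 minus Abl.4) and 0.64 (Abl.3 minus Abl.4). Isg15 had values of 11.01 (Abl.2 minus Abl.3) and 11.34 (Abl.2 minus Abl.4). With 0 paternal counts of Isg15 and 3 per library of Ddx58 in Abl.2, these fitted ratios depend on the prior count and are no bounds. Bst2 differed by 1.25 from Abl.3 and by 1.67 from Abl.4 in Abl.2. For Stat2 the differences from Abl.2 were -0.94 to Abl.3 and -1.06 to Abl.4, and for Trim25 they were -0.74 and -0.71. Samhd1 had values of -0.77 (Abl.2 minus Abl.3) and 0.53 (Abl.3 minus Abl.4), and Ifih1 of 1.05 (Abl.2 minus Abl.3). Ifih1 lost the call without Abl.2 replicate 2 (0.86), Abl.3 replicate 1 (1.08) or Abl.3 replicate 2 (1.01). Ddx58 lost it between Abl.3 and Abl.4 without Abl.3 replicate 1 (0.70), Abl.3 replicate 2 (0.57) or Abl.4 replicate 1 (0.43), and Samhd1 without Abl.3 replicate 2 (0.51).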

How the results depend on the processing

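No recomputed value of a gene called in the main analysis changed its sign, but the split of imbalance calls in Abl.2 went from 8 maternal and 4 paternal to 4 and 9 with allele totals as library sizes, and that of allelic differences between Abl.2 and Abl.4 from 3 and 2 to 3 and 4. Called members ranged from 22 to 24 between Abl.2 and Abl.3, 19 to 25 between Abl.2 and Abl.4, and 7 to 13 between Abl.3 and Abl.4 when 1 library was left out (25, 25 and 16 with all). For allelic differences the ranges were 6 to 8, 5 to 7 and 0 to 4 (7, 5 and 2 with all), and for allelic imbalance 8 to 13 in Abl.2, 8 to 13 in Abl.3 and 8 to 10 in Abl.4 (12, 12 and 8 with all). Over all 8702 genes, the calls of allelic difference then ranged from 2064 to 2604, 1642 to 1912 and 1034 to 1317 (2475, 1942 and 1432 with all), and those of imbalance from 3206 to 4432, 2741 to 4101 and 2751 to 3407 (4272, 3926 and 3472 with all). Over all genes, calls between Abl.2 and Abl.3 fell from 4382 to 2466 without Abl.2 replicate 2, between Abl.2 and Abl.4 from 3682 to 1970 without Abl.2 replicate 1, and between Abl.3 and Abl.4 from 4194 to 2343 without Abl.3 replicate 1. Fewer samples were fitted there. Of the values for genes called with all libraries, 1049 of abundance kept their side of the threshold and 86 lost it; the counts were 147 and 7 for allelic differences and 326 and 25 for allelic imbalance. Members not called in the main analysis gained 33 calls of abundance, 12 of allelic difference and 15 of imbalance over these settings. With the replicate number as a block, 26, 25 and 18 members were called in abundance, 8, 5 and 2 in allelic difference and 10, 11 and 8 in allelic imbalance. Among all genes the block gave 5213, 4608 and 5184 calls (4382, 3682 and 4194 without it), 2404, 1894 and 1343 (2475, 1942 and 1432), and 3798, 3368 and 2952 (4272, 3926 and 3472). The block ended the abundance calls of Parp14 and the imbalance calls of Dhx58 and Ifi35 in Abl.2 and Trim30a in Abl.3, and added those of Zbp1 and Trim30a (Abl.2 against Abl.3), Sp100 (Abl.2 against Abl.4) and Irf1 and Irf9 (Abl.3 against Abl.4) in abundance and of Rtp4 in allelic difference. The correlation of same-numbered deviations across genes was 0.10, 0.19 and 0.16, positive in all 3 pairs of lines. The labels name library preparations and no shared batch, and each comparison holds only 2 same-numbered pairs, so the block was kept as an alternative. The depth behind TPM is unknown, members near 1 TPM are poorly resolved, and allelic shares on fewer than 100 counts have wide intervals.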

Other observations

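Members with few allelic counts could not be tested between lines but are given here. Oasl2 in Abl.4 had 0 maternal and 44 paternal counts in replicate 1 and 25 maternal and 5 paternal in replicate 2, shares of 0 and 0.833 whose 95% Wilson intervals (0 to 0.0803 and 0.664 to 0.927) do not overlap. In Abl.2 its shares were 0.327 and 0.568 on 101 and 111 counts. Oasl1 had shares of 0.318 and 0.473 in Abl.2 and Rsad2 of 0.742 and 0.558, while the other lines had at most 10 and 4 counts per library. Oas2 had shares of 0.826 and 0.695 in Abl.2 on 23 and 59 counts.

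The Wilson intervals of a line's replicate libraries did not overlap for 4 of the 24 tested members in Abl.2 (12.8% of all genes tested), 8 in Abl.3 (15.6%) and 4 in Abl.4 (19.9%). They include Trim30a in Abl.4, at 0.543 and 0.445 on 1314 and 2018 counts, and Irf9 in Abl.3, at 0.560 and 0.474 on 1574 and 1447 counts. Parp14 in Abl.4 had a maternal share of 0.272 in replicate 1 (626 counts, 0.238 to 0.308) and of 0.545 in replicate 2 (883 counts, 0.512 to 0.577). In Abl.2 the shares of Parp14 were 0.479 and 0.470. Without Abl.4 replicate 2, edgeR called Parp14 paternal in Abl.4 (-1.42) and different from Abl.2 (1.27) and Abl.3 (1.04). These members were chosen after their values were seen.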
